A study of Mus musculus with 8 samples.

Results

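Mouse miRNAs of the related groups miR-466, miR-467 and miR-669 were followed in skin with and without a tamoxifen-driven loss of Ncstn. Every miRNA on the array whose name is miR-466, miR-467 or miR-669, with any letter, number or arm ending, was taken as a member, whether or not it gave signal. This gave 58 of the 1881 miRNAs on the array: 23 miR-466, 12 miR-467 and 23 miR-669 members, of which 25 were named as 3p arms, 23 as 5p arms and 10 had no arm in the name. All 8 samples were skin of male mice with floxed Ncstn alleles and a Krt14 promoter-driven CreER (Ncstn flx/flx; Krt14 CreER+/-), killed at 16 weeks of age. Nicastrin, the Ncstn product, is a subunit of γ-secretase, and Krt14 is a keratin of basal keratinocytes. The 4 NcstnΔKC samples came from mice given tamoxifen at 20 mg/kg daily for 5 days from 8 weeks of age and every 10 days after that by gavage, and the 4 normal samples from mice of the same genotype given corn oil. Tamoxifen and loss of Ncstn therefore cannot be told apart, and Ncstn mRNA was not measured on these arrays. All normal arrays lay in 1 row of the slide and all NcstnΔKC arrays in the other, so the position on the slide cannot be told apart from the group either. Separate mice are not named in the labels for the 4 samples of each group, so the p-values reflect the spread among samples that may be technical in part.

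miRNAs are short RNAs that guide Argonaute proteins to partly matching sites in mRNAs, largely through the seed at their bases 2 to 8. Most miR-466, miR-467 and miR-669 genes are rodent-specific copies that lie head to tail in an intron of Sfmbt2, which encodes a Polycomb-group protein and is an imprinted gene of the placenta. Their hairpins are built from UG repeats on 1 arm and AC repeats on the other, so mature members resemble each other and simple repeats. The array's own probe positions (mm9) placed 29 members in a stretch of 49808 bases at chr2:10388918-10438725. Of the rest, 1 mapped on chromosome 13 and 28 had no position in the files.

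Reference mature sequences (RefSeq, GRCm38.p6) were matched for 7 members, shown here because they display the repeats and because 3 of them (miR-466i-3p, miR-466q and miR-467f) gave signal. Capitals mark the seed.
miR-466i-3p: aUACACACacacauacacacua
miR-466q: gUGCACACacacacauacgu
miR-467f: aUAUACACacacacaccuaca
miR-467g: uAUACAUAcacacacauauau
miR-466j: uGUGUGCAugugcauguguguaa
miR-466k: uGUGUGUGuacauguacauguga
miR-669n: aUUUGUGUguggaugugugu
In RefSeq these 7 lie outside chromosome 2, although the array placed its probe for miR-669n, an entry that stands for 2 mature IDs, on chromosome 2. miR-466i-3p is at chr13:17747552-17747573 (+ strand) within Cdk13, miR-466q at chr3:28419988-28420007 (+) within Tnik, and miR-467f at chr11:69635419-69635439 (− strand) within the bounds of Fxr2; whether each is exonic or intronic was not looked up. Each of the 7 seeds occurred in 1 miRNA among the 1608 on the array with a mature sequence in the table. The other family members have no sequence there, so whether they share these seeds could not be searched. A run of 4 consecutive AC or CA repeats was found in 4 of these 7 (read on the mature strand alone) and in 4 of all 1608, so it was found in no other array miRNA with a sequence. A run of 4 UG repeats was found in 2 of the 7 and in 7 of the 1608.

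The arrays read these miRNAs through 152 DNA probes of 13 to 23 bases, 1 to 4 per member and each with its own sequence. Where a mature sequence was at hand, the probes were its reverse complement from its 3′ end. The longest probe of each reached back to between base 6 (miR-466j) and base 1 (miR-467g), so the seed was covered in part or in whole. The longest probe of each of the 8 members that gave signal is shown, because what they share is a run of alternating G and T (capitals), or of alternating C and A in miR-466i-5p.
miR-466f-3p: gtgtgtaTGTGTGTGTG
miR-466h-3p: GTGTGTGTGTGcgt
miR-466i-3p: tagtgtgtaTGTGTGTGTG
miR-466q: acgtaTGTGTGTGTGTG
miR-467f: tgtagGTGTGTGTGTGT
miR-669c-3p: tttactTGTGTGTGTGTG
miR-669p-3p: atacGTGTGTGTGTGTatg
miR-466i-5p: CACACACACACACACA
A pair of members without signal, chosen after their values were seen, shows how close the neighbours are: their probes begin with the same bases as those of miR-467f and miR-669p-3p but have a shorter run.
miR-467a-3p: tgtagGTGTGTGTatgtata
miR-669f-3p: atacGTGTGTGTGTatgt
The probe of miR-669p-3p maps in the cluster at chr2:10410799-10410817 and again at chr2:10418180-10418198, that of miR-669c-3p at chr2:10430991-10431007, and that of miR-466i-3p at chr13:17839390-17839407 (all mm9). The other 5 probes in the first list had no position.

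Signal was seen for few members, and by the detection rule used here for fewer in NcstnΔKC than in normal skin. On each array, detection of a probe required 50% or more of its spots to be well above background, and detection of a miRNA required 1 such probe. By this rule 8 members were detected on at least 1 array: 5 of 23 miR-466, 1 of 12 miR-467 and 2 of 23 miR-669. The other 50 were detected on none, among them 22 of the 23 members named as 5p arms. All 8 were detected in normal skin and 5 of them in NcstnΔKC skin. Normal arrays 1 to 4 detected 6, 6, 7 and 8 members (6.75 ± 0.957, SD, n = 4), and NcstnΔKC arrays 1 to 4 detected 5, 1, 1 and 2 (2.25 ± 1.89, SD, n = 4). The groups did not overlap, and NcstnΔKC 1 stood well above the other NcstnΔKC arrays. Detection over all miRNAs also ran lower in NcstnΔKC, at 198 to 238 miRNAs per array against 235 to 273, with 1 NcstnΔKC array inside the normal range. With the scanner software's own detection flag the groups overlapped for the family, at 7, 8, 8 and 8 members in normal and 9, 4, 3 and 5 in NcstnΔKC. By that flag 9 members were detected on at least 1 array, all of them on NcstnΔKC 1 and miR-669n in NcstnΔKC alone.

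Of the 58 members, 6 were tested, namely those with detection on every array of 1 group or of both. The signal of each array was divided by its 75th percentile over the 301 probes detected on all arrays, probes were summed per miRNA, and log2 was taken with a floor at -4.97. Differences are NcstnΔKC minus normal on this log2 scale, tested with limma (adjusted p below) and adjusted over all 222 miRNAs tested. Among the 6, 5 were lower in NcstnΔKC and 0 were higher at an adjusted p under 0.05; over all 222 tested miRNAs, 27.9% were lower and 14.9% higher. The 5 entered the test through the normal arrays alone, being detected on all 4 of them but not on all 4 NcstnΔKC arrays, and a miRNA that enters this way is bound to lean lower. Of the 36 miRNAs that entered so, 27 (75%) were lower, so the count of members is not by itself a result about the family. The median difference of those 5 was -1.22, beside -1.09 over the 36; over the 6 tested members it was -1.20, beside -0.23 over all 222, a gap that the way of entry builds in. Of the 6, 0 had all NcstnΔKC values above all normal ones, and 3 (miR-466f-3p, miR-466h-3p and miR-467f) had all NcstnΔKC values below all normal ones, beside 23.4% of the 222 and 50% of the 36.

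Among the miR-466 3p arms, miR-466h-3p was at -3.38, -3.21, -2.75 and -2.61 on normal arrays 1 to 4 and at -3.76, -4.85, -4.95 and -4.62 on NcstnΔKC arrays 1 to 4. The ranges did not overlap, and the difference was -1.56 ± 0.30 (SE, n = 4 per group; limma adjusted p = 0.00457). Its signal was detected on 1 NcstnΔKC array of 4, NcstnΔKC 1, which was also the highest of the 4, so no exact fold is given. miR-466f-3p was at -4.11, -4.05, -3.40 and -3.24 in normal skin and at -4.62 and 3 times at the floor in NcstnΔKC. The groups did not overlap, with a difference of -1.18 ± 0.23 (SE, n = 4 per group; limma adjusted p = 0.00466). It was not well above background on any NcstnΔKC array, so its fold depends on the floor. The value of 2.27-fold lower takes the higher of its own signal and the floor on each NcstnΔKC array, and is not a minimum. The difference was -0.33 with a floor 2 times as high (limma adjusted p = 0.205) and -2.36 with a lower floor. It was -0.48 with the brightest probe and -0.12 with the mean of log2 over probes, but -1.34 with no scaling. miR-466i-3p, detected on 2 normal arrays and not tested, was at -4.54, -4.22, -3.67 and -3.66 in normal skin and at -4.47 and 3 times at the floor in NcstnΔKC, with NcstnΔKC 1 inside the normal range.

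miR-466q, named without an arm, was at -3.98, -3.68, -3.21 and -3.10 in normal skin and at -3.92 and 3 times at the floor in NcstnΔKC. NcstnΔKC 1 lay above normal 1, so the groups overlapped, while the difference was -1.22 ± 0.30 (SE, n = 4 per group; limma adjusted p = 0.0137). Values at the floor understate both a fall and its spread, and the floor held 3 of 4 NcstnΔKC values for miR-466q and miR-466f-3p.

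The miR-467 member with signal, miR-467f, was at -2.92, -2.69, -2.30 and -2.23 in normal skin and at -3.13, -3.92, -4.20 and -3.95 in NcstnΔKC. None of its values was at the floor and the groups did not overlap; the difference was -1.26 ± 0.26 (SE, n = 4 per group; limma adjusted p = 0.00678). It was detected on 2 NcstnΔKC arrays of 4. The gap between the lowest normal and the highest NcstnΔKC array was nonetheless small beside the spread within each group. Its longer probe, with 15 spots, had processed intensities of 114, 129, 175 and 192 on the normal arrays and 99.7, 45.6, 45.9 and 50.03 on the NcstnΔKC arrays. The SD between those spots was 5.01 to 13.4 within an array, which covers the error between spots and not that between samples.

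Among the miR-669 members, miR-669p-3p was at -2.40, -2.02, -1.69 and -1.58 in normal skin and at -2.29, -3.08, -3.31 and -3.15 in NcstnΔKC. No value was at the floor; NcstnΔKC 1 was above normal 1, and the difference was -1.03 ± 0.27 (SE, n = 4 per group; limma adjusted p = 0.0169). It was detected on 1 NcstnΔKC array of 4. Without NcstnΔKC 3 this member missed the threshold (-0.92, limma adjusted p = 0.0546). miR-669c-3p was detected on normal 4 alone and was not tested; it was at -4.97, -4.86, -4.28 and -4.28 in normal skin and at the floor on all 4 NcstnΔKC arrays.

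miR-466i-5p did not pass the test, and whether it differed from the lower members was not tested. It was at 0.57, 0.29, 0.51 and 0.47 in normal skin and at 0.88, 0.36, 0.73 and 1.002 in NcstnΔKC, and it was the 1 member detected on all 8 arrays. The groups overlapped and the difference was 0.28 ± 0.17 (SE, n = 4 per group; limma adjusted p = 0.215), which does not show that the level was the same. It also took most of the family's signal. The whole family made up 0.462 ± 0.0507% (SD, n = 4) of the summed scaled signal of detected miRNAs in normal skin and 0.398 ± 0.102% in NcstnΔKC. Without miR-466i-5p the share was 0.130%, 0.134%, 0.187% and 0.217% on normal arrays 1 to 4 and 0.101%, 0%, 0% and 0.0141% on NcstnΔKC arrays 1 to 4. A share of 0 here means that no other member was detected on that array.

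**Figure D1:**
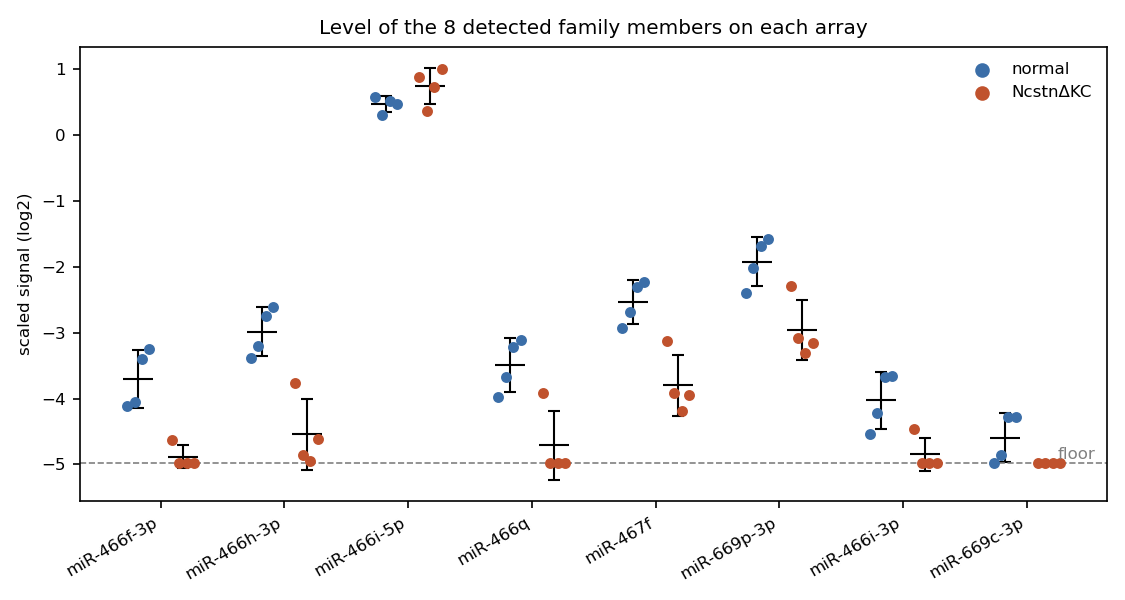
Scaled log2 signal (vertical axis) of the 8 detected members, with 1 point per array (4 normal and 4 NcstnΔKC, in order of replicate number from left to right), the mean as a horizontal bar, the SD as error bars, and the floor at -4.97 as a dashed line. NcstnΔKC 1, the leftmost NcstnΔKC point, is the highest of its group for each of the 5 lower members, and miR-466i-5p is at 0.29 to 1.002 on all 8 arrays.

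The order of the arrays was nearly the same from member to member. In all 5 lower members normal 4 was the highest of the 8 arrays, normal 1 the lowest normal array and NcstnΔKC 1 the highest NcstnΔKC array. The mean log2 level over the 5 was -3.36, -3.13, -2.67 and -2.55 on normal arrays 1 to 4 and -3.54, -4.36, -4.48 and -4.33 on NcstnΔKC arrays 1 to 4. The 5 are not independent readings of this order, since their probes share 10 to 13 bases in a row with each other, and the probe of miR-466f-3p shares 17 with that of miR-466i-3p.

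Detection followed the length of the alternating G/T run in the probe. Of 102 family probes with a longest run of 0 to 7 bases, 2 were detected on at least 1 array, and both were the miR-466i-5p probes, whose runs are of C and A (15 and 16 bases). Among probes with a run of 8 or 9 bases 0 of 34 were detected, among those with 10 or 11 bases 5 of 9, and among those with 12 bases 7 of 7. All 16 probes with a run of 10 or more, which belong to 8 miRNAs, had a lower mean intensity in NcstnΔKC than in normal skin. The same direction was seen in 3065 of the 3700 probes outside the family that were detected nowhere, so direction alone says little. Sizes cannot be set against those 3700 either, since they were chosen for giving no signal. The median intensity of the 7 probes with a run of 12 was 63.4, 78.5, 101 and 113 on normal arrays and 61.4, 27.5, 26.4 and 32.8 on NcstnΔKC arrays. Over the 3700 never-detected probes the median was -8.98, -7.76, -8.11 and -7.59 against -9.73, -11.3, -12.2 and -6.77, with NcstnΔKC 4 above all normal arrays. The 9 probes with a run of 10 or 11 had medians of 37.9, 43.9, 67.1 and 72.3 against 32.8, 12.02, 9.38 and 12.8. The 34 probes with a run of 8 or 9 had medians of 1.75, 3.94, 5.23 and 7.35 against 1.14, -1.97, -0.0187 and 4.15, near the background on every array.

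The same order appears within some members, but there it cannot be told apart from probe length. In miR-466f-3p, miR-466q and miR-669c-3p the probe with the longer run is also the longer probe. Of the 4 nested probes of miR-466f-3p, with runs of 7, 8, 9 and 10 bases, the one with a run of 10 was detected, on 4 normal arrays. Of the 2 probes of miR-466q, the one with a run of 12 was detected and the one with 11 was not. The same held for miR-669c-3p. In miR-467f, with runs of 11 and 12, and in miR-466h-3p, with runs of 11, both probes were detected on 4 normal arrays. Of the 4 probes of miR-669p-3p, all with a run of 12, each was detected on 4 normal arrays and 1 NcstnΔKC array. miR-669f-3p, with a run of 10 in the middle of its probes, was detected nowhere. Outside the family no probe of the other miRNAs had a G/T run above 7 bases (0 of 4263), so a comparison with non-members at equal run length was not possible. Whether these probes read 1 RNA, several members or other repeat-bearing RNA was not tested.

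**Figure D2:**
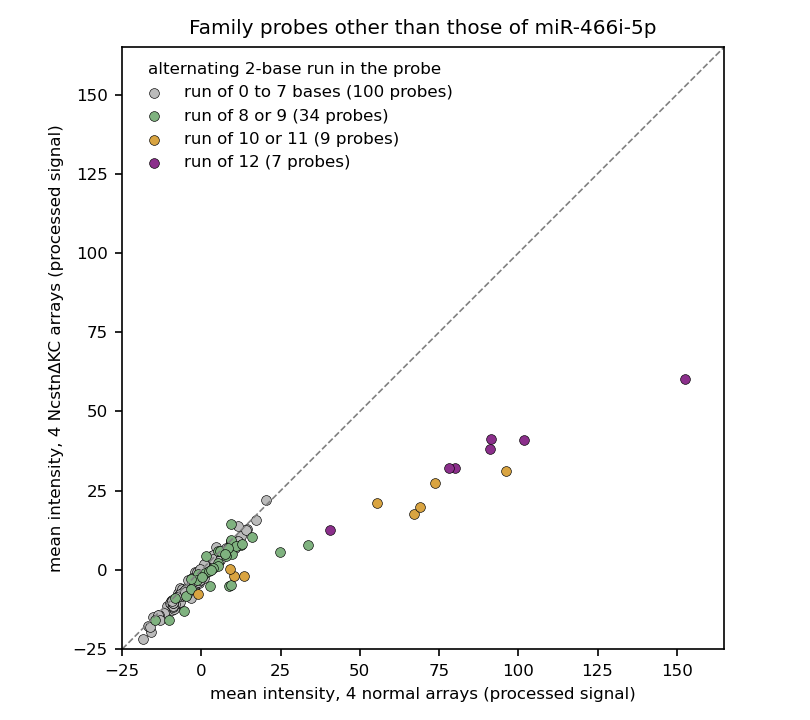
Mean processed intensity of each family probe over the 4 normal arrays (horizontal axis) and the 4 NcstnΔKC arrays (vertical axis), 1 point per probe, coloured by the length of its alternating G/T run; the 2 probes of miR-466i-5p are left out and the dashed line marks equal intensity. All 16 probes with a run of 10 or more bases lie under the line, and most probes with shorter runs lie near it, close to 0, apart from the run of 9 in miR-466f-3p and miR-466i-3p.

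Repeat-bearing miRNAs outside the family were few, and 0 of the 3 that could be tested were lower in NcstnΔKC. These 3 carry UG repeats, whereas the 5 lower members have probes with G/T runs, which face AC repeats. The 3 were also detected on all 8 arrays, so they did not enter the test through the normal arrays alone. They are therefore not a like-for-like contrast to the 5. The miR-297 miRNAs, which come from the same intron of Sfmbt2, had 3 entries on the array and 0 were detected. Repeats could be searched only in the 1608 of 1881 array miRNAs with a mature sequence at hand. Among these, no miRNA outside the family carried 4 AC or CA repeats. Of the 5 outside the family that carried 4 UG repeats, 3 were tested, 2 of them were higher in NcstnΔKC and 0 were lower, beside 14.9% and 27.9% of the 222. miR-574-5p, whose gene lies in an intron of Fam114a1, is shown with its repeat in capitals because its probe, like that of miR-466i-5p, faces UG repeats.
miR-574-5p: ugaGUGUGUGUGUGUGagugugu
miR-1187: uaUGUGUGUGUGUauguguguaa
miR-3082-5p: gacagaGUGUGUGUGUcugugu
miR-574-5p was at -0.88, -1.12, -1.09 and -1.27 in normal skin and at -0.27, -0.89, -0.67 and -0.48 in NcstnΔKC, a difference of 0.51 ± 0.17 (SE, n = 4 per group; limma adjusted p = 0.0414). The groups overlapped, as NcstnΔKC 2 lay just under normal 1. miR-3082-5p differed by 0.71 ± 0.24 (limma adjusted p = 0.0414), with overlapping groups, and miR-1187 by 0.32 ± 0.19 (limma adjusted p = 0.206). miR-466i-5p, with 0.28 ± 0.17, had a value close to that of miR-1187. Both calls were weak. Each was lost when any array other than normal 1 or NcstnΔKC 2 was left out (limma adjusted p of 0.0741 to 0.107 for miR-574-5p and 0.0716 to 0.107 for miR-3082-5p). Without scaling the difference was 0.25 for miR-574-5p (limma adjusted p = 0.345) and 0.44 for miR-3082-5p (limma adjusted p = 0.204). The difference between these UG-repeat miRNAs and the 5 lower members was not tested.

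Other measures were also read on each array, and not all of them kept the family's order of arrays. The 75th percentile used for scaling was 1259 ± 44.6 intensity units (SD, n = 4) in normal skin and 1053 ± 98.3 in NcstnΔKC, while the local background was 24.5 to 26 against 24 to 27 and the raw mean of the negative controls 127 to 133 against 128 to 132. The label of skin was checked on the keratinocyte miRNAs (the miR-200 family with miR-203 and miR-205), all 7 detected on all 8 arrays, with a summed scaled signal of 22.5 to 27.4 in normal and 22.7 to 30.3 in NcstnΔKC skin. By the same test 4 of the 7 were lower in NcstnΔKC (miR-203-3p, miR-200a-3p, miR-200b-3p and miR-429-3p) and 0 higher; miR-205-5p differed by 0.47 (limma adjusted p = 0.0518). The striated muscle miRNAs (miR-1a, miR-133a, miR-133b, miR-206 and miR-499) summed to 17.5, 50.6, 84.1 and 67.9 on normal arrays 1 to 4 and 38.3, 6.41, 12.9 and 13.1 on NcstnΔKC arrays 1 to 4. Of these 5, 4 were detected on all arrays, miR-499-5p was not detected on any, and 1, miR-1a-3p, was lower by the test. As for the family, normal 1 was the lowest normal array and NcstnΔKC 1 the highest NcstnΔKC array, but for muscle NcstnΔKC 1 lay well above normal 1. The highest array was normal 3 for muscle and normal 4 for the family. The blood and myeloid miRNAs summed to 2.94 to 3.47 in normal and 4.12 to 9.19 in NcstnΔKC skin, with 3 of 7 detected on all arrays and miR-144-3p on none. Of the 5 of them tested, miR-142a-3p was higher and miR-486a-5p lower. The fibroblast and smooth muscle miRNAs summed to 5.44 to 7.63 and 9.01 to 13.97, although their members went both ways: miR-199a-3p, miR-199a-5p and miR-214-3p were higher and miR-145a-5p was lower. The endothelial miRNAs summed to 2.38 to 3.08 and 2.75 to 3.35 with 0 of 1 tested passing, and the hair and pigment cell miRNAs, of which miR-204-5p was lower, to 0.138 to 0.282 and 0.06 to 0.0996. The part of these in the family's result was not tested, and in whole skin fewer cells of a type and less RNA per cell cannot be told apart.

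**Figure D3:**
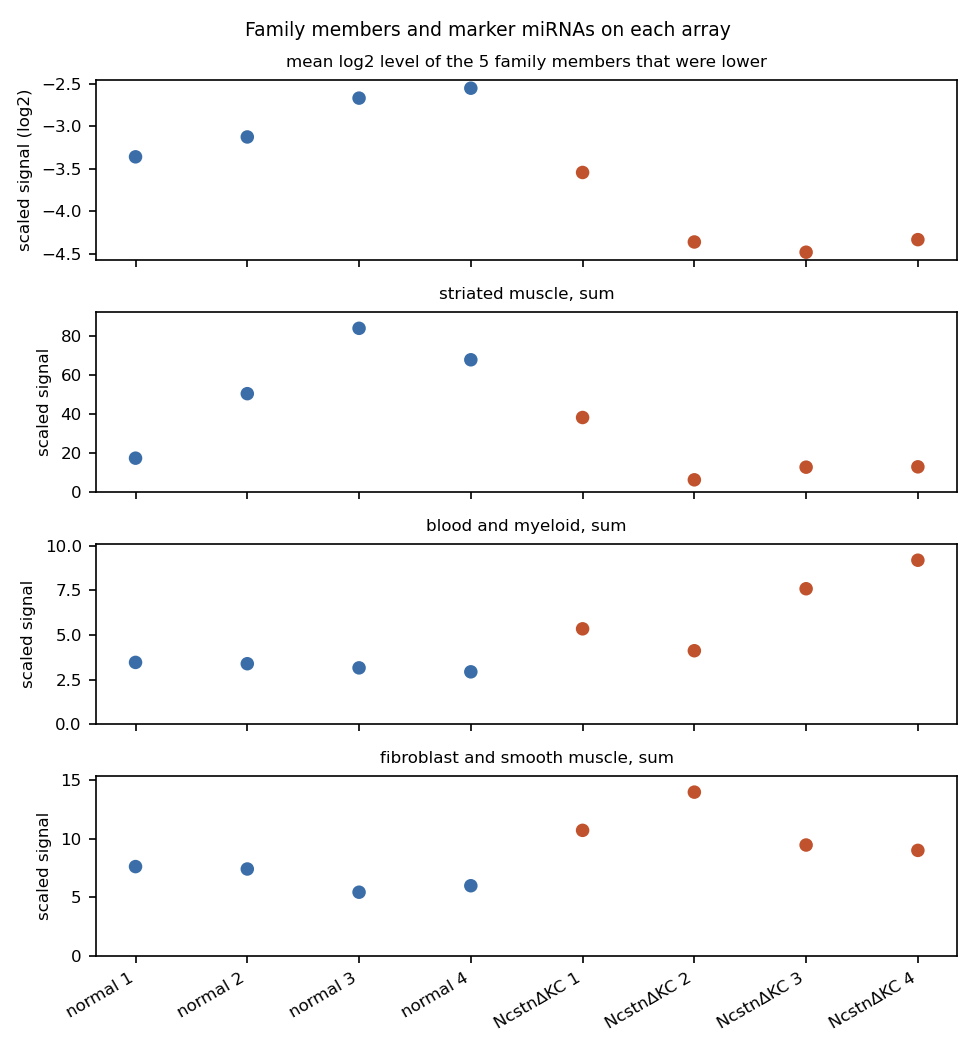
Mean log2 level of the 5 lower family members (top panel) and the summed scaled signal of 3 marker lists (lower panels, axes from 0) on each of the 8 arrays, 1 point per array, blue for normal and orange for NcstnΔKC. The family and the striated muscle list both have normal 1 as the lowest normal array and NcstnΔKC 1 as the highest NcstnΔKC array. They differ in the highest array, normal 4 for the family and normal 3 for muscle, and NcstnΔKC 1 lies above normal 1 for muscle alone of these 2.

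How many of the 5 passed depended on how the arrays were scaled and their background treated. All 5 stayed lower at an adjusted p under 0.05 with no scaling and with scaling on 4 spiked-in control RNAs. In both settings miRNAs in general ran lower. Of the 222 tested, 101 were lower with no scaling (median -0.49) and 91 with spike-in scaling (median -0.54). As reported, 62 were lower (median -0.23). With quantile normalization or cyclic loess 2 passed, miR-466h-3p and miR-467f. With the percentile over all probes 0 passed, and that scaling moved the median of all tested miRNAs from -0.23 to 0.64; the members' median was then -0.35. With a normexp background correction and its offset of 50, 1 passed (miR-467f) and the members' median was -0.17, near the -0.07 of all tested miRNAs. With the authors' deposited log2 values, normalized in a way the sources used here do not give, 2 passed and the members' median was -0.77. In each of these settings the 5 differences were negative, although that of miR-466f-3p with normexp was next to 0 (-0.00046, limma adjusted p = 0.996). The scanner software's totals, which drop undetected probes, put miR-467f at 2.23 (limma adjusted p = 0.093) and passed 0 members. The miR-466i-5p difference ran from -0.02 (spike-in scaling) to 1.15 (percentile over all probes), and it passed in none.

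**Figure D4:**
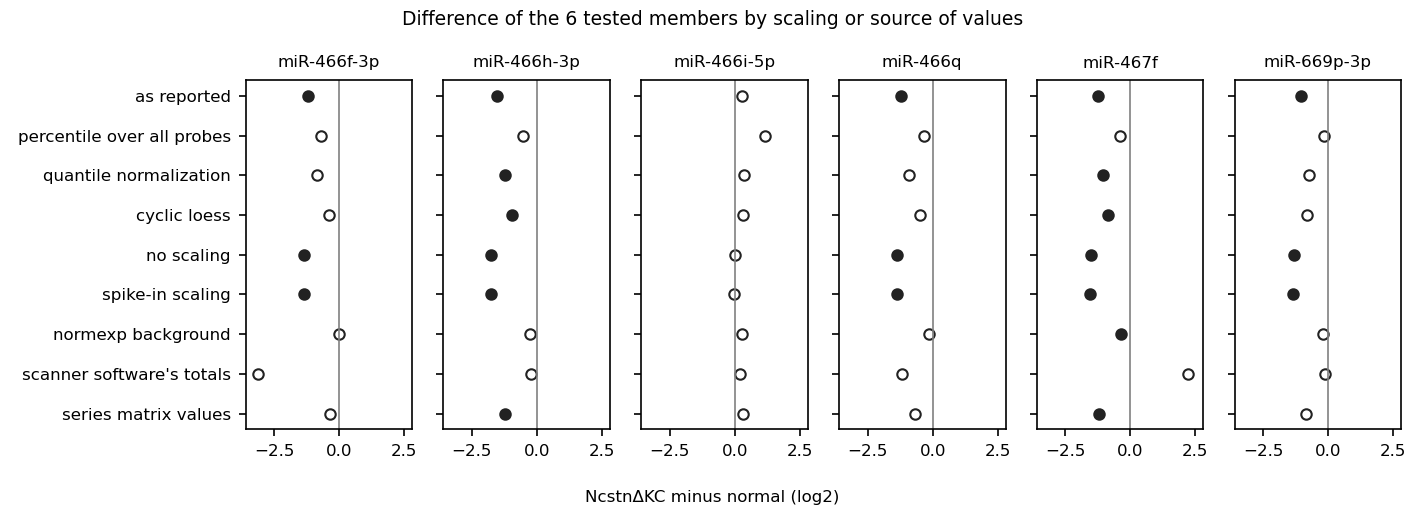
Difference between NcstnΔKC and normal (log2, horizontal axis) for each of the 6 tested members, 1 point per scaling or source of values; filled points have a limma adjusted p under 0.05. The 5 lower members sit left of 0 in every row except miR-467f with the scanner software's totals (2.23), though miR-466f-3p with normexp lies next to 0 (-0.00046). Filled points are missing throughout for the percentile over all probes and for the software's totals.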

How the data were processed

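Total RNA, labelled with Cy3, was hybridised to 8 one-colour arrays, which limits the precision. Per the file headers, the deposited intensity of each spot was read by Agilent Feature Extraction 10.7.1.1 with a fitted background surface subtracted, and probe positions are mm9. The deposited log2 table of the same arrays served as an alternative; the labels do not state its normalization. Control and outlier spots were dropped, no spot was saturated, spots were averaged per probe, scaled, summed per miRNA and floored at 0.0318 (per array the lowest scaled signal among detected miRNAs, median of 8). The floor touched 18 of 222 tested miRNAs. Groups were fitted with limma 3.58.1 in R 4.3.3 (lmFit and eBayes on group; 2.46 prior degrees of freedom); p-values were adjusted by Benjamini-Hochberg over the 222, and the code was tested on simulated data. Alternatives changed the scaling, background, summary over probes, floor, detection filter, block, weights and arrays used. Tested members were all named, as were those detected on at least 1 array. The members, the marker lists and the lists of related miRNAs were chosen with earlier results of these data known.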

Additional observations from a re-analysis of the deposited data

Results flagged for a closer look

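In 5 of the 24 groups of 4 values checked, 1 array lay apart from the other 3 of its group by Dixon's 95% criterion. All 5 were NcstnΔKC 1, and they are not independent, since the members share probe sequence. NcstnΔKC 1 was at -4.62 for miR-466f-3p, at -3.92 for miR-466q and at -4.47 for miR-466i-3p, with the other 3 NcstnΔKC arrays at the floor. With 3 tied values any other value meets the criterion, so these 3 carry no weight, and the usual chance rate of about 1 in 20 does not apply to them. Its share of signal from members other than miR-466i-5p was 0.101%, and its mean log2 level over the 5 lower members was -3.54. Without NcstnΔKC 1, all 5 members were still lower, with a median difference of -1.38 over the 6 tested.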

How the results depend on the processing

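The count of lower members, 5 as reported, was 0 with the percentile over all probes, with the scanner software's totals, with miRNAs detected on all 8 arrays (where 1 member, miR-466i-5p, was left) and with no filter (58 members tested among 1881). It was 1 with normexp, 2 with cyclic loess, the series matrix values and quantile normalization, and 3 with a floor 2 times as high or with a replicate block. Same-numbered samples did not deviate together (correlations of -0.44, 0.20, -0.26 and -0.23), which gave no sign of pairing by number but cannot exclude it. With the replicate block miR-466q (limma adjusted p = 0.0577) and miR-669p-3p (0.0698) missed the threshold. With the software's detection flag 7 members were tested and 6 were lower, miR-466i-3p among them (-1.36 ± 0.34, adjusted p = 0.0153). Leaving out each array in turn gave 4 to 5 lower members and medians of -1.38 to -1.06. No setting gave a higher member. The members' median of -1.20 became -0.35 with the percentile over all probes, -0.66 with cyclic loess, -0.17 with normexp, -0.19 with the software's totals, -0.73 with the brightest probe, -0.49 with the mean of log2 over probes, -0.77 with the series matrix values, -0.70 with the higher floor, 0.28 with miRNAs detected on all 8 arrays, 0 with no filter (most members at the floor) and -1.56 with array weights. The difference in detected members per array, -4.50 as reported, was -2.50 with the software's flag. The difference in the family's share of signal, -0.0642 percentage points as reported, was -0.234 with normexp and -0.360 with the software's totals; leaving out each array in turn gave -0.0997 (without NcstnΔKC 1) to -0.0218 (without NcstnΔKC 2). Reversed values with the software's totals were 2.23 for miR-467f and -0.0878 for miR-3082-5p (run after seeing the data), and with spike-in scaling -0.0248 for miR-466i-5p. The cause was not tested except where the setting itself changes what is tested. The members' signals lie close to background, and 4 arrays a group on 1 slide limit what can be told.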
